A study of Homo sapiens with 63 samples.

Results

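Interferon-stimulated genes were followed across 9 small-cell lung cancer (SCLC) cell lines. The set held 9 genes of the 20044 genes that the array annotation names alone on a probe: ISG15, IFIT1, IFIT3, IFI6, IFI27, MX1, OAS1, IRF1 and IFITM1. All probes carrying one of these symbols were taken, which gave 16 of the 47217 probes on the array. A gene was read from the kept probe with the highest mean signal, and its other probes were used as a check.

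The H lines were H69, H128 and H146 together with H187, H209 and H526, and the DMS lines were DMS114, DMS53 and DMS153, labelled D114, D53 and D153. Each was grown under 7 conditions: vehicle (Con), the PARP inhibitor veliparib at 5 µM (A5) or 50 µM (A50), cisplatin alone (C+0), cisplatin with 5 µM (C+5) or 50 µM veliparib (C+50), and radiation at 2 Gy (Rad). PARP enzymes sense broken DNA, and cisplatin crosslinks it. Cisplatin was set for each line at its own half-maximal inhibitory dose, from 0.4 µM in H526 to 14.5 µM in H128, so lines were not matched for dose. There was 1 array per line and condition, 63 in all, and the line is therefore the replicate: p-values cover the spread between lines, and an array has no repeat of its own. The methods and the labels give different exposure times, and the time is not settled here. The methods also state that the identity profile of H128 failed to match published references, so values without H128 are given where they change a call. No line was treated with interferon.

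Interferons are secreted when a cell senses foreign or misplaced nucleic acid. Type I interferon signals through the kinases JAK1 and TYK2, and many of its target genes carry the interferon-stimulated response element (ISRE). Targets of interferon gamma often carry the gamma-activated sequence (GAS). Both raise a common programme of antiviral genes, and tumour cells can keep part of that programme on without infection. In a bulk extract, fewer expressing cells and less RNA per cell cannot be told apart.

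The promoters show how the 9 genes share these elements. In the RefSeq windows (GRCh38.p14) that run from 250 bases before to 50 bases after each annotated start, the letters GAAANNGAAA, the core of an ISRE, were found on either strand in 7 of the 9 genes, against 4.38% of 27305 genes. The letters TTCNNNGAA, the core of a GAS, were found in 5 of the 9, against 9.38% of genes, and in IFI27, MX1 and IFITM1 a GAS match overlapped an ISRE match. ISG15 held 2 overlapping ISRE matches and IFI6 held 3. IRF1 and OAS1 each had a GAS match and no ISRE match in these windows. A match is a run of letters and not a measured binding site. One match for each of 8 genes, all but OAS1, is shown along the strand of the gene with the motif in capitals. ISRE cores come first and then the GAS match of IRF1. The fixed letters in capitals are alike because they were searched for.
ISG15, chr1:1013380-1013409, plus strand: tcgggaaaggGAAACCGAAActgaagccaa
IFI6, chr1:27672288-27672317, minus strand: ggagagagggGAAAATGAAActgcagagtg
IFI27, chr14:94110618-94110647, plus strand: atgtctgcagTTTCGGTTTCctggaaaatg
IFIT1, chr10:89392510-89392539, plus strand: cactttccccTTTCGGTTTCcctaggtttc
IFIT3, chr10:89332468-89332497, plus strand: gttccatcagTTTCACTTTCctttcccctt
IFITM1, chr11:313990-314019, plus strand: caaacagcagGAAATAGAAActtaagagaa
MX1, chr21:41431844-41431873, plus strand: ggtcactctgTTTCTCTTTCcgtgaataaa
IRF1, chr5:132490879-132490907, minus strand: acagcctgatTTCCCCGAAatgacggcac

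Levels are log2 signals after quantile normalization, on which the median of all probes and arrays was 6.63. A probe was called detected on an array where its deposited detection p-value was under 0.05, and the lowest detected signal of an array lay near 6.7. No background was subtracted, so a difference on this scale understates the difference in RNA, most of all for dim probes. Of the 16 probes, 13 were detected on at least 4 of 63 arrays and were tested, covering 8 of the 9 genes. Between 19124 and 22330 probes were detected per array. The number of arrays limits the precision of every value below.

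By the probe read for each gene, 5 of the 9 genes differed clearly between cell lines, and 4 stayed near detection. ISG15 and IFI6 spanned 3.84 and 3.79 log2 units from the highest to the lowest line mean, MX1 1.66, IRF1 1.40 and IFIT1 1.25. OAS1, IFI27, IFIT3 and IFITM1 spanned at most 0.30 by the probe read, while other OAS1 probes spanned up to 0.55. No line was highest for all of the genes: DMS114 led for ISG15 and IFIT1, DMS153 for IFI6 and MX1, and DMS53 for IRF1. H69 was lowest for ISG15, IFI6, MX1 and IRF1.

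**Figure D1:**
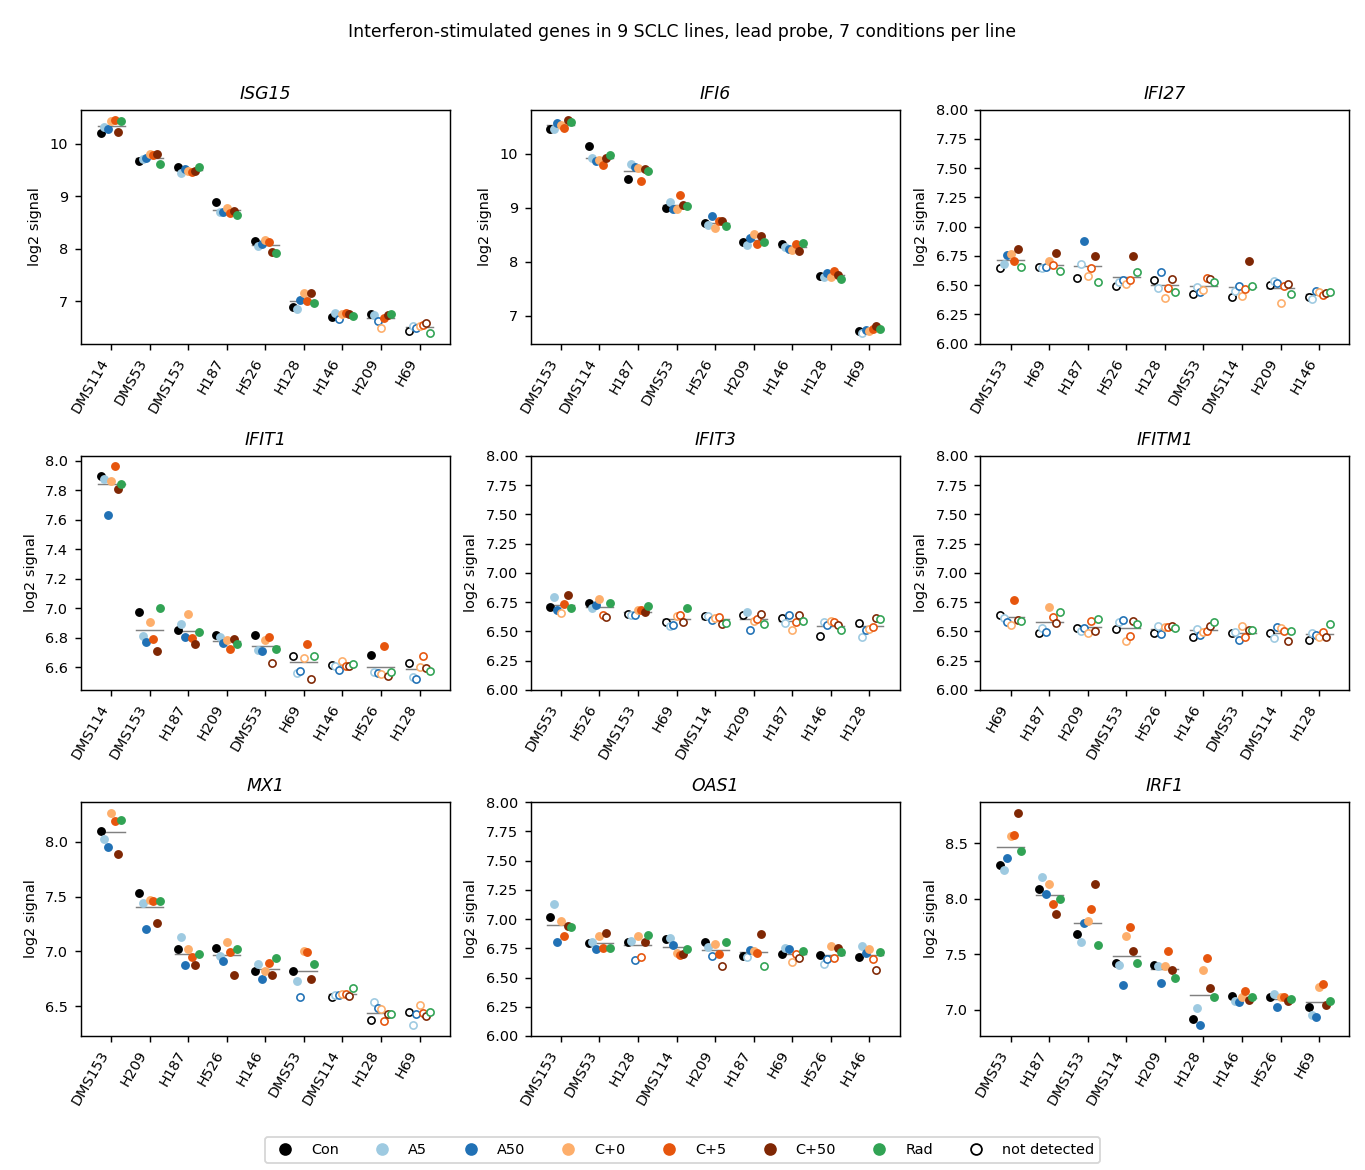
Log2 signal of each member's probe (y axis) in the 9 cell lines (x axis), 1 point per array and condition, so that 7 points stand over each line. Lines are ordered by their mean (grey bar), open points were not detected, and panels differ in y range. ISG15 and IFI6 step down by 3.84 and 3.79 log2 units from the highest line to H69, while OAS1, IFI27, IFIT3 and IFITM1 stay near the level of detection in every line.

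ISG15 encodes a ubiquitin-like protein that is conjugated to other proteins. Over the 7 arrays of DMS114 its level ran from 10.21 through a median of 10.33 to 10.45, with a mean of 10.34 ± 0.10 (SD, n = 7). DMS53 followed at 9.74 ± 0.07 and DMS153 at 9.51 ± 0.05 (each n = 7). The 3 DMS lines stood above every H line, with no overlap between any 2 of them. H187 reached 8.73 ± 0.08, H526 8.06 ± 0.10 and H128 7.01 ± 0.12 (each n = 7), and all of their arrays were detected. H146 (6.73, 6 of 7 arrays detected) and H209 (6.68, 5 of 7) overlapped each other. H69 was not detected on any of its 7 arrays, which ran from 6.39 to 6.58. DMS114 was 3.05-fold above H187, 10.1-fold above H128 and at least 12.5-fold above H69, that last value being set against the lowest detected signal of each array. After background correction the distance from DMS114 to H128 was 4.55 log2 units, and to H187 it was 1.81. In 6 of the 8 steps down the order of lines the higher line's 7 arrays lay wholly above the lower line's.

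IFI6 encodes a small mitochondrial and endoplasmic reticulum protein with anti-apoptotic and antiviral activity. It was the most widely detected gene next to IRF1, on 62 of 63 arrays. Its level was highest in DMS153, where the arrays ran from 10.45 through 10.53 to 10.62, followed by DMS114 at 9.93 ± 0.11 and H187 at 9.67 ± 0.12 (each n = 7). The arrays of DMS114 and H187 overlapped. DMS53 (9.05), H526 (8.72), H209 (8.40), H146 (8.27) and H128 (7.75) followed, of which only H209 and H146 overlapped their neighbour. H69 was lowest at 6.74, detected on 6 of 7 arrays, and lay 13.8-fold below DMS153. The second IFI6 probe also put DMS153 (8.24), DMS114 (7.93) and H187 (7.84) first and H69 (6.78) last, over a narrower span. IFI27, of the same protein family, was detected on 11 of 63 arrays, 5 of them in DMS153, where its mean was 6.72.

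IFIT1 and IFIT3 belong to a family that recognizes viral RNA, and IFITM1 is a membrane protein that hinders viral entry. IFIT1 marked a single line. In DMS114 its arrays ran from 7.63 through 7.86 to 7.96, clear of every other line. DMS153 (6.85), H187 (6.84) and H209 (6.78) were detected on all 7 arrays but overlapped one another, and DMS53 (6.74) was detected on 6. H146 and H128 were not detected on any array. DMS114 was 1.98-fold above DMS153 and at least 2.26-fold above H146. The second IFIT1 probe stayed near detection in every line, with 6.64 in DMS114, so the height of DMS114 rests on 1 probe. IFIT3 was detected mainly in DMS53 (6.73, 6 of 7 arrays), H526 (6.71, 5 of 7) and DMS153 (6.67, 4 of 7), but not in DMS114. IFITM1 was detected on 2 of 63 arrays and was not tested.

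MX1, a GTPase that blocks viral nucleocapsids, followed another order of lines than ISG15. DMS153 ran from 7.88 through 8.10 to 8.26, and H209 from 7.20 through 7.45 to 7.53, each clear of the lines below it. H187 (6.98), H526 (6.97), H146 (6.84) and DMS53 (6.82) overlapped. DMS114, the line with the most ISG15, had no MX1 detected on any array (mean 6.61), nor had H128 or H69. DMS153 was at least 2.66-fold above DMS114.

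OAS1 makes the oligoadenylates that activate RNase L. Its brightest probe gave means between 6.69 and 6.95 with no line clear of the next, although it was detected on 49 of 63 arrays. The other detected OAS1 probes split the lines more sharply: one was detected on all 7 arrays of DMS53 (6.93) and DMS153 (6.85) and on none of the other lines, and another on all 7 arrays of the same lines (7.05 and 6.85) and on only some arrays elsewhere. The OAS1 probes thus disagreed on how far the lines differ, and which transcripts each reads is not given in the sources used here.

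IRF1 encodes a transcription factor that interferon induces and that itself binds ISRE-like sites. It was detected on all 63 arrays. DMS53 was highest, its arrays running from 8.26 through 8.43 to 8.77, clear of H187 (8.04 ± 0.11, n = 7). DMS153 (7.79), DMS114 (7.49), H209 (7.37), H128 (7.13), H146 (7.11), H526 (7.10) and H69 (7.07) followed, each overlapping its neighbour. DMS53 was 2.63-fold above H69. Within lines IRF1 varied most in H128 (SD 0.22), DMS153 (0.19), DMS53 (0.18) and DMS114 (0.18), and least in H146 (0.03) and H526 (0.04).

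The line accounted for nearly all variation in the brighter genes. Differences between lines held 99.7% of the sum of squares for ISG15, 99.5% for IFI6, 96.7% for IFIT1, 96.6% for MX1 and 92.4% for IRF1, against a median of 86.6% over all tested probes. The conditions held 0.0253% for ISG15 and 0.0175% for IFI6, 1.34% for IFIT1, 1.47% for MX1 and 2.92% for IRF1, beside a median of 2.53% over all tested probes. The share was larger for dim genes whose total spread was small, at 14.5% for IFI27, 9.29% for IFITM1 and 8.12% for OAS1. Over the 9 line means, ISG15 correlated with IFI6 (r = 0.84, Spearman's rho = 0.85), IRF1 (r = 0.70) and IFIT1 (r = 0.67), but little with MX1 (r = 0.25). MX1 went with OAS1 (r = 0.67) and IFI6 (r = 0.63) and not with IFIT1 (r = -0.05). These values describe 9 lines whose arrays share normalization, and no test was made on them.

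At baseline the question was whether the 3 DMS lines, a division that follows line names only, differed from the 6 H lines. In vehicle, ISG15 ran from 9.57 to 10.21 in the DMS lines and from 6.42 to 8.89 in the H lines, with no overlap. The difference was 2.52 log2 units (9.82 ± 0.35, n = 3, against 7.30 ± 0.99, n = 6), and a two-sided exact permutation test over 84 arrangements gave p = 0.0119, the smallest it can give. After Benjamini-Hochberg adjustment over the 9 genes p was 0.107. IFI6 (difference 1.63, exact p = 0.0476), IFIT1 (0.52, exact p = 0.0357) and OAS1 (0.16, exact p = 0.0357) were higher on average in the DMS lines with overlap, and none passed after adjustment. The IFIT1 difference was 0.18 without DMS114. IRF1 (0.52, exact p = 0.131) and MX1 (0.29, exact p = 0.548) were also higher on average with overlap, at larger exact p-values. In limma over all 30716 probes, 0% were called between the families and none of the 13 member probes was (adjusted p = 0.382 for ISG15), while 2221 probes had an unadjusted p under 0.05. With 3 lines against 6, this comparison had little power.

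The treatments changed few of these genes, and every call fell in an arm with 50 µM veliparib. A change here is the mean over lines of the difference from the same line's reference array, tested by limma with the line as a block and called at an adjusted p under 0.05 over 30716 probes. A50 against Con called 2 of 13 member probes, IFIT1 and MX1, both lower, where 11.7% of all probes were called. C+50 against Con called 3 of 13, IFIT1 and MX1 lower and IFI27 higher, where 17.2% of all were called. C+50 against C+0 called the same 3 genes in the same directions, with 11.7% of all probes called. These are 15.4%, 23.1% and 23.1% of the 13 probes, each within 2 calls of its background. The comparisons share arrays, so they do not support one another. The median change of the 13 probes was -0.020 with A50, -0.021 with C+50 and -0.021 for C+50 against C+0, where the median of all probes was near 0 in each.

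**Figure D2:**
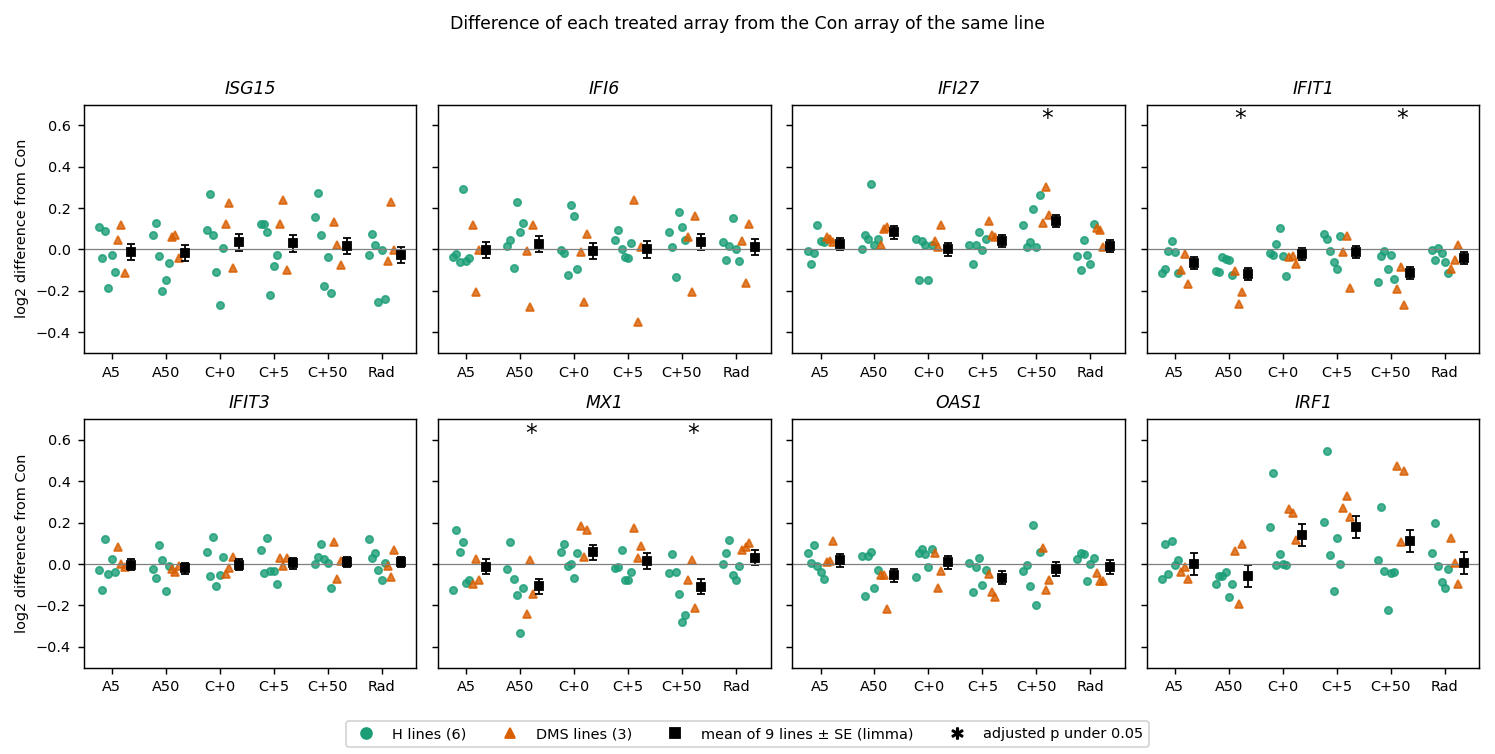
Log2 difference from the reference array of the same line (y axis) for 8 members under each treatment against Con (x axis), 1 point per line (triangles DMS, circles H), with the limma mean ± SE as a square and a star where it was called. IFIT1 lay below 0 in all 9 lines with A50 and with C+50, IFI27 above 0 in all 9 with C+50, and ISG15 and IFI6 scattered around 0 throughout. The 9 lines include those in which no array detected the gene, 2 for IFIT1 and 4 for IFI27.

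The brighter IFIT1 probe fell in all 9 lines with A50, among them H128 and H146, where no array detected it. Its level in vehicle ran from 6.62 through a median of 6.82 to 7.90, and with A50 from 6.52 through 6.71 to 7.63, so the groups overlapped and the shift appears only within lines. The mean change was -0.12 (SE 0.029, adjusted p = 0.0038, limma), and the 2 largest falls were in DMS114 (-0.27) and DMS153 (-0.21). With C+50 it was -0.11 (adjusted p = 0.0039), again lower in 9 of 9 lines. Both calls held when any 1 line was left out, and both rest on 1 probe. The second IFIT1 probe, near detection, was not called, and with A50 it was higher in H128, H209 and H526 and lower in the other lines. Against C+0 it was -0.09 (adjusted p = 0.037), lower in 8 of 9 lines, and that call was lost without H69, H187, DMS53 or DMS153 (adjusted p up to 0.134). IFIT1 was detected on 6 of 9 vehicle arrays and on 5 of 9 A50 arrays, so part of the shift lies among signals at the edge of detection.

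MX1 fell with A50 in each of the 6 lines where vehicle arrays detected it. Vehicle levels ran from 6.38 through 6.82 to 8.10, and A50 levels from 6.42 through 6.75 to 7.95. The mean change was -0.11 (SE 0.037, adjusted p = 0.046, limma), and H209 showed the largest fall (-0.33), followed by DMS53 (-0.24) and H187 (-0.15). This call stood close to the threshold and was lost without H146, H187, H209, H526, DMS53 or DMS153 (adjusted p from 0.066 to 0.235), the mean change without H209 being -0.078. With C+50 the change was -0.11 (adjusted p = 0.030), lost without H187, H209, H526 or DMS153. Against cisplatin alone, the MX1 signal was lower in all 9 lines, by a mean of -0.17 (adjusted p = 0.00087). These 9 include DMS114, H128 and H69, where no array detected MX1. That call held with any line left out, and the 2 largest falls were in DMS153 (-0.38) and H526 (-0.30).

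The IFI27 signal was higher with C+50 in all 9 lines, although in H128, H146, H209 and DMS53 no array detected it. It was detected on 0 of 9 vehicle arrays, which ran from 6.39 through 6.50 to 6.65, and on 5 of 9 C+50 arrays, which ran from 6.43 through 6.70 to 6.81. The arrays that detected it were those of DMS114, DMS153, H187, H526 and H69. The mean change was 0.14 against Con (SE 0.030, adjusted p = 0.00044, limma) and 0.14 against C+0 (adjusted p = 0.00079), and both calls held with any line left out. The vehicle level was not detected, so no fold is given. With A50 alone the mean change was 0.083 (adjusted p = 0.060, and 0.048 under median scaling), and the difference in H187 was 0.32.

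The remaining comparisons called none of the 13 probes. A5 against Con called 0% of all probes, with 1299 at an unadjusted p under 0.05. C+0 called 1.26%, C+5 1.66% and Rad 0.827%. These shares hung on single lines: leaving out 1 line gave 0.44% (without DMS153) to 1.62% (without H187) for C+0, 0.762% (without DMS153) to 1.89% (without H187) for C+5, and 0.0456% (without H69) to 2.11% (without DMS53 or DMS153) for Rad. A50 against A5 called 7.26% and C+50 against A50 0.368%. A test of whether C+50 departed from additive A50 and C+0 effects called 0.00977%. For ISG15 the mean change was between -0.03 and 0.03 under all 6 treatments, and for IFI6 between -0.01 and 0.03. The 95% intervals bound what these arrays could have missed: -0.045 to 0.114 for ISG15 with C+0, -0.107 to 0.053 for ISG15 with Rad, and -0.084 to 0.072 for IFI6 with C+0. Single lines moved further, such as ISG15 in H128 (0.27) and H209 (-0.27) with cisplatin alone.

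IRF1 had the largest mean difference of the lead probes with cisplatin alone, and it did not pass the test over 9 lines. In vehicle its level ran from 6.92 through 7.40 to 8.30, with C+0 from 7.11 through 7.40 to 8.57, and with C+5 from 7.12 through 7.53 to 8.57, so the groups overlapped. The mean change was 0.14 with C+0 (95% interval 0.035 to 0.249, adjusted p = 0.22, limma) and 0.18 with C+5 (adjusted p = 0.066), where 8 of 9 lines were higher. With C+50 it was 0.11 (adjusted p = 0.17), and C+50 exceeded A50 by 0.17 (adjusted p = 0.13). With C+0 the largest differences were in H128 (0.44), DMS53 (0.26) and DMS114 (0.25), while H146, H209 and H526 stayed within 0.01 of vehicle. H128 is the line of uncertain identity, and without it the C+5 change was 0.13 (adjusted p = 0.29). Without H187, whose IRF1 was lower with C+5 (-0.13) and C+50 (-0.22), IRF1 was called with C+5 (0.22, adjusted p = 0.011), with C+50 (0.15, adjusted p = 0.035) and for C+50 against A50 (0.21, adjusted p = 0.035). The C+5 call was also made with all 9 lines under a stricter detection filter (adjusted p = 0.040), so these calls depend on the lines and the filter used.

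**Figure D3:**
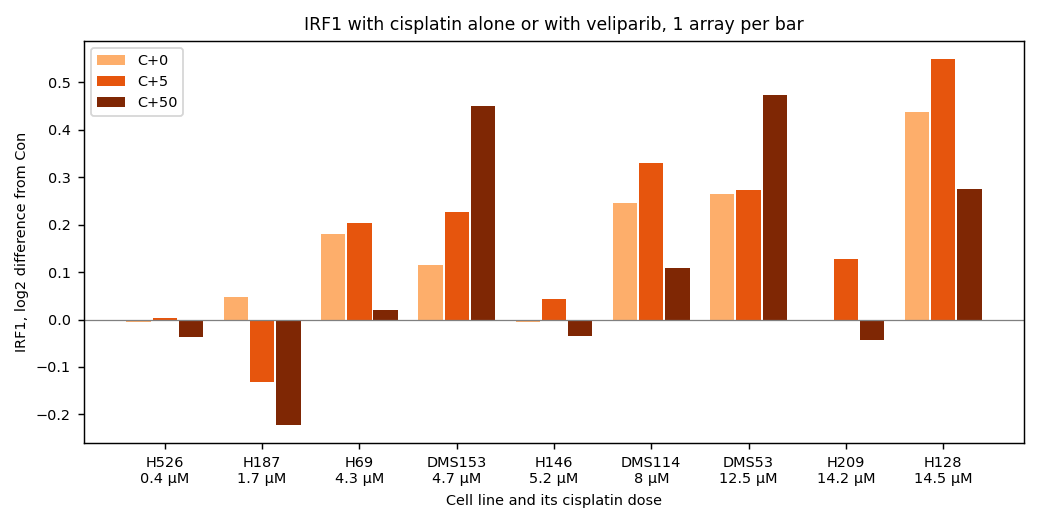
Log2 difference of IRF1 from Con (y axis) in each line, ordered by its cisplatin dose in µM (x axis), with 1 bar per array for C+0, C+5 and C+50. H128 at 14.5 µM shows the largest difference with cisplatin alone, 0.44, while H209 at a similar dose of 14.2 µM lies at 0.

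The cisplatin dose differed between lines, and lines with more cisplatin tended to have the larger IRF1 difference. Over 9 lines the correlation with dose was r = 0.56 (rho = 0.58) for C+0, r = 0.70 (rho = 0.72) for C+5 and r = 0.59 (rho = 0.60) for C+50 against A50. Without H128 and H209, the 2 lines with the highest dose, r was 0.81, 0.75 and 0.75. Dose and line are the same variable here, their parts cannot be told apart, and these values are given with no test.

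Splitting by line name, the calls fell in the DMS lines. Within the 3 DMS lines, A50 called 1 of 13 probes, IFIT1 (-0.19, adjusted p = 0.013), where 5.46% of all were called. C+50 called 4 of 13, where 12.9% of all were called: IRF1 rose by 0.34 (SE 0.081, adjusted p = 0.0018), with DMS53 at 0.47, DMS153 at 0.45 and DMS114 at 0.11. IFI27 rose by 0.20 (adjusted p = 0.0053). IFIT1 (-0.18, adjusted p = 0.011) and 1 OAS1 probe (-0.16, adjusted p = 0.029) were lower. Within the 6 H lines none of the 13 was called with A50, where 7.1% of all were, or with C+50, where 9.15% of all were. The difference between families was itself tested and called none of the 13. Of all probes it called 0.013% (A50), 0.0163% (C+0), 0.583% (C+50) and 3.32% (Rad). IRF1 came nearest, with a C+50 change 0.35 larger in the DMS lines (SE 0.099, adjusted p = 0.085). That difference passed without H128 (0.41, adjusted p = 0.015) or without DMS114 (0.47, adjusted p = 0.0084).

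The wider pathway was read from 5 lists. Of 50 other type I interferon-stimulated genes 43 were tested. A50 lowered 4 and raised 0 (9.3% of the list, where 11.7% of all probes were called), namely HERC5 (the ligase that attaches ISG15, -0.19, adjusted p = 0.00034), ISG20 (an exonuclease, -0.18), UBE2L6 (the ISG15-conjugating enzyme, -0.12) and IFI35 (-0.11). C+50 lowered 7 (ISG20, HERC5, UBE2L6, IFI35, SP110, PLSCR1 and IFI16) and raised 1, IFIT5 (0.081), or 18.6% against 17.2% of all probes. Against C+0, C+50 lowered 9 and raised 0, PLSCR1 (-0.18) and PARP12 (-0.16) among them, or 20.9% against 11.7%. The share of all probes includes dim ones and depends on the filter. Under the stricter detection filter the 11.7% of this last comparison became 22.7%. The share became 31.8% for the drug combination against vehicle and 22.7% for 50 µM veliparib alone. No list was compared with probes of similar signal, so a list share above that of all probes does not show enrichment. Leaving out 1 line gave 3 to 6 lower with A50, 3 to 8 with C+50 and 5 to 10 against C+0. The HERC5 and UBE2L6 calls held with any line left out, the ISG20 call with A50 did too, and the IFI35 call with A50 was lost without any 1 of 7 lines (adjusted p up to 0.128). With C+50, leaving out DMS153 lost ISG20, SP110, PLSCR1, IFI16 and IFIT5, and IFIT5 was lost without any 1 of 7 lines (adjusted p up to 0.237). None was called with A5, C+0, C+5 or Rad. The list's median change was -0.022 with A50, -0.018 with C+50 and -0.044 for C+50 against C+0, beside medians near 0 over all probes. ISG15 did not pass the test in any of these. HERC5 and UBE2L6, which act on its protein, were lower on average at 50 µM. With A50, HERC5 was lower in 7 lines and higher in 2, and only 40 arrays of the series detected it. HERC5 and UBE2L6 were named after their values were seen, and genes acting on the ISG15 protein were not tested as a set.

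Among 14 interferon signalling components, A50 lowered 1 and raised 0 (7.14% against 11.7% of all probes). That gene was PTPN2, a phosphatase that restrains JAK kinases (-0.19, adjusted p = 6.7e-05). C+50 lowered PTPN2 (-0.16) and raised 2, TYK2 (a receptor kinase, 0.17) and IFNGR1 (a receptor chain of interferon gamma, 0.12), or 21.4% against 17.2%. The PTPN2 calls held with any line left out, TYK2 was lost without H69, DMS53 or DMS153 (0.083 at its smallest), and IFNGR1 without DMS53 or DMS114. Among 17 nucleic acid sensors and their activators, A50 lowered 1 and raised 0 (5.88%), and C+50 lowered 2 and raised 1 (17.6%). RNASEH2B, a subunit of the enzyme that removes ribonucleotides from DNA, was lower with A50 (-0.23, adjusted p = 0.0023) and with C+50 (-0.17, lost without H526 or DMS153). TBK1, a kinase downstream of the sensors, was higher with C+50 (0.13, adjusted p = 0.033), a call lost without H128, H187, DMS53 or DMS114. With radiation, where 0.827% of all probes were called, RNASEH2B was the only gene called across the 5 lists together. It was higher, by 0.27 (adjusted p = 0.0084) and in 7 of 9 lines. That call was lost without H69, H128, H146 or H187 (adjusted p up to 0.070). Of 19 interferon gamma and IRF1 targets none was called under any of the 6 treatments. That is 0% of the list, where A50 called 11.7% of all probes and C+50 17.2%. Many of the 19 were dim, which limits what this list could show. In H69, 3 were detected on all 7 arrays and 13 on none, and in DMS53 10 were detected on all 7. The interferon genes themselves were nearly silent: only 3 of 21 on the array were detected often enough to be tested, and none was called.

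The lines also differed in the wider programme. The mean deviation of the 43 other genes from their average over lines was 0.31 in DMS153, 0.21 in DMS53 and 0.10 in DMS114, and it was lowest in H128 (-0.20) and H69 (-0.32). DMS153 had 35 of the 43 detected on all 7 arrays and DMS53 33, against 13 in H69 and 13 in H128. DMS114, highest for ISG15 and IFIT1, had 24, fewer than H187 (27), H146 (26), H209 (25) and H526 (25).

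**Figure D4:**
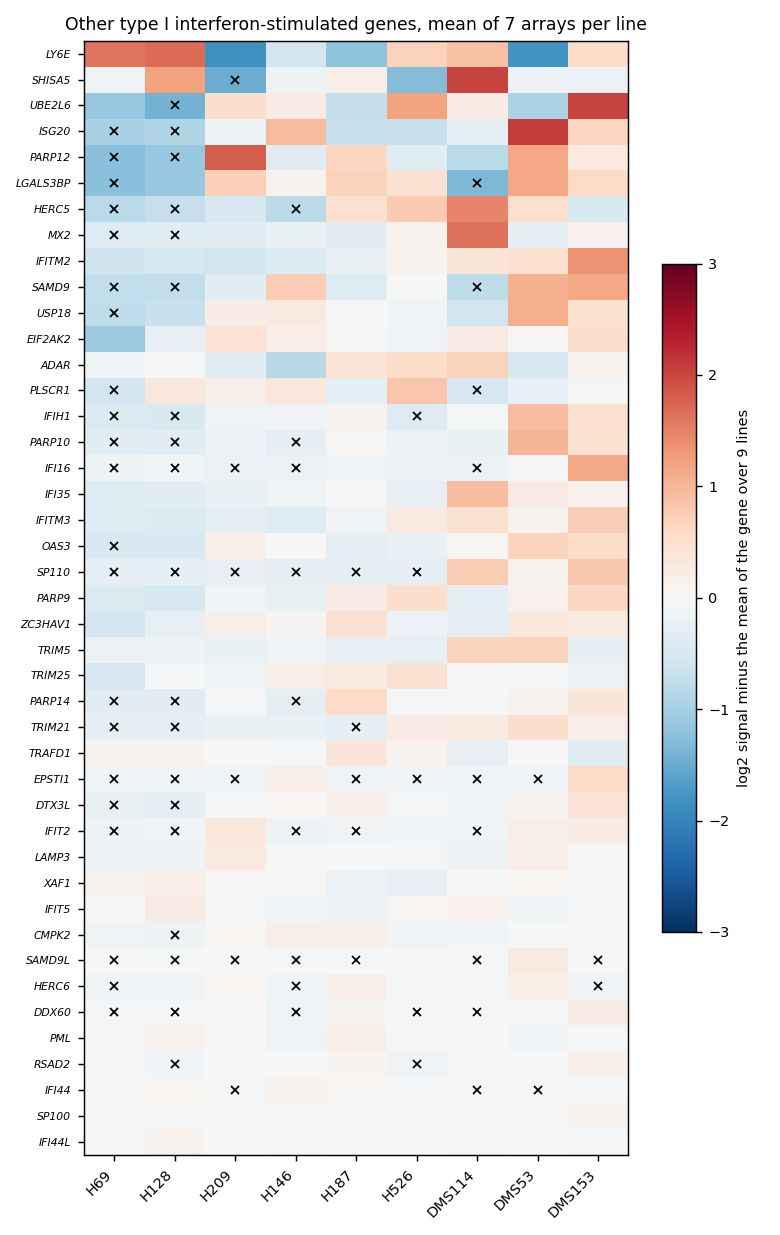
Mean log2 signal of 43 other type I interferon-stimulated genes (rows) in the 9 cell lines (columns), each gene centred on its mean over lines and coloured by its deviation in log2 units, with a cross where none of the 7 arrays detected it. The mean deviation is highest in DMS153 (0.31) and lowest in H69 (-0.32), and single genes such as MX2 in DMS114 depart from the order of the columns.

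Each gene had its own closest companions over the 63 arrays, among 3540 genes with an SD of at least 0.5. ISG15 ran closest to RPL39L (r = 0.97), TAP2 (r = 0.95) and SH3BGRL3 (r = 0.94), of which TAP2 is a peptide transporter of antigen presentation. IFIT1 ran with FBXO6 (r = 0.96), FZD8 and KMT5B (each r = 0.95). MX1 ran with RASD1 (r = 0.92), HPSE (r = 0.92) and LMCD1 (r = 0.92), IRF1 with CTSD (r = 0.94), and IFI6 with NPC2 (r = 0.89). OAS1, IFIT3, IFI27 and IFITM1, near detection by the probe read, had no companion above r = 0.76. The arrays of a line share its level, so these values reflect 9 lines rather than 63 independent samples. They were picked as the highest among 3540 genes, and how high such values run by chance was not tested.

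The lines also differed in cell state markers, and their part in these levels was not tested. The mean level of 10 neuroendocrine genes was 11.1 in DMS153 and 7.42 in DMS114. The mesenchymal list was highest in DMS114 (8.25) and the tuft-like list in H526 (10.03). In DMS114, 5 of the 10 mesenchymal genes were detected on all 7 arrays, with VIM (13.84) and COL3A1 (11.47) the brightest. COL1A2 and FN1 were not detected there, and THY1 was higher in H526 (9.27) and H69 (8.75) than in DMS114 (8.33). DMS153 and DMS114, which led for the members, thus stood at opposite ends of the neuroendocrine markers. The leucocyte list, a check for other cells, lay between 6.87 and 7.29 in every line, and 6 of its 10 genes were kept. PTPRC, CD3D and CD3E were not detected often enough to be kept, while CD68 was detected on all arrays of every line (7.74 to 8.73), CD14 on all arrays of every line but H128 (highest in DMS53, 8.15), and CD79A reached 8.76 in H187 and 8.01 in H209.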

How the data were processed

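Total RNA of 9 SCLC lines under 7 conditions was hybridised to Illumina HT-12 v4 beadchips, 1 array for each line and condition. The authors read the arrays in GenomeStudio 2010.3 and deposited, per probe and array, an intensity without background subtraction and a detection p-value. They also deposited quantile-normalized values, which differed from those computed here by at most 0.015 log2 units and served as an alternative. Gene symbols came from the platform annotation: 1 symbol for 30108 probes, several for 8 and none for 17101. The depth of an array is given as its number of detected probes.

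Intensities were quantile normalized and log2 transformed. The 30716 probes detected (p-value under 0.05) on 4 or more of 63 arrays were kept. Each was fitted with limma 3.58.1 in R 4.3.3, with condition as the effect and cell line as a block, and p-values (two-sided) were adjusted by Benjamini-Hochberg over all kept probes. The block rests on the line: deviations of arrays of the same line from their condition means correlated at r = 0.93 to 0.98 over 189 pairs, against at most 0.16 between lines. Families of lines were compared at baseline by limma and by an exact permutation test. The fit was tested on simulated data with known changes. A probe not detected on any array of a group was set at the lowest detected signal of each array, and its fold is then a bound. Alternatives were the authors' values, background correction by neqc (offset 16), median scaling, all probes unfiltered, the stricter requirement of a detection p under 0.01 on 32 arrays, only the compared arrays, no block, no moderation, the mean of a gene's probes, and each line left out. Leaving lines out for the pathway lists was chosen after seeing the data.

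Named genes were the 9 members by their brightest kept probe, up to 3 rises and 3 falls among called pathway genes per main treatment, and the 3 most similar genes per member. The HERC5, UBE2L6, PARP12 and other calls beyond that rule were named after their values were seen. The members and gene lists were chosen with earlier results of these data known. Neuroendocrine, tuft-like, mesenchymal and leucocyte lists described the lines. Promoter sequence and starts came from RefSeq (GRCh38.p14), and the build behind the array annotation is not given in the sources used here. A few items are not reported here. Figures were drawn with matplotlib 3.10.9 in Python 3.11.15.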

Additional observations from a re-analysis of the deposited data

Results flagged for a closer look

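Of 63 sets of 9 lines examined (7 for each gene), 6 held a line far from the other 8, and chance alone marks about 1 set in 20. In vehicle, IFIT1 in DMS114 was 7.90 where the nearest line was 6.98, and OAS1 in DMS153 was 7.02 where the nearest was 6.83. In vehicle, IFITM1 in H69 was 6.64 where the nearest was 6.52, and neither array detected it. The IFI6 change with C+5 was -0.35 in DMS114, beside -0.040 in the nearest line. The IFI27 change with A50 was 0.32 in H187, beside 0.11 in the nearest line. The IFITM1 change with C+0 was 0.22 in H187, beside 0.056 in the nearest line, at signals near detection. None of 32 tests of a differing effect between the DMS and H lines, over 8 lead probes and 4 treatments, was called.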

How the results depend on the processing

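Counts below are of member probes called. For A50 against Con the count of 2 became 1 with no filter (IFIT1), with the stricter filter (MX1), with only the compared arrays and with no variance moderation (IFIT1 in both), became 3 under median scaling (IFI27 added), and leaving out 1 line gave 1 to 2. For C+50 against Con and for C+50 against C+0 the count of 3 became 1 with the stricter filter, which left fewer member probes, and leaving out 1 line gave 2 to 3. The first became 2 (MX1 lost) under median scaling and with only the compared arrays, and the second became 2 (IFIT1 lost) with only the compared arrays. For C+5 against Con the count of 0 became 1 (IRF1) with the stricter filter, and leaving out 1 line gave 0 to 1. For C+50 against A50, and for the C+50 effect in DMS minus H lines, leaving out 1 line gave 0 to 1. For the Rad effect in DMS minus H lines the count of 0 became 2 under median scaling, IFI6 (-0.35, adjusted p = 0.0089) and 1 OAS1 probe (-0.21, adjusted p = 0.030). Under that scaling 20.6% of all probes were called and their median shifted by -0.074; the cause was not tested.

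Without the line as a replicate block the counts for A50, C+50 and C+50 against C+0 were 0, since the spread between lines then entered the error, and 0.00326% of all probes were called for A50. The block changed no other count. No direction reversed under any alternative for a called value. Of 740 single-gene values under alternatives, 705 kept their side of the threshold, 18 called values no longer passed it and 5 newly passed it. The other 12 missed it in both and moved by more than the spread between lines. Among the 705, called values kept their direction, while values not called moved by less than that spread and could change sign. IFIT1 for C+50 against C+0 fell to -0.048 (adjusted p = 0.20) as the mean of its 2 probes. Depth in the sense of read counts does not apply: signals near background limit IFI27, IFIT3, OAS1 and IFITM1.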

Other observations

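These genes were chosen after their values were seen and are given as values with no test. The share of all probes that split the lines in such ways is not given here. Any link of these genes to the levels of the members was not tested. CGAS, the sensor of cytosolic DNA, was detected on all 7 arrays of each DMS line, at 7.22 in DMS53, 6.99 in DMS114 and 7.73 in DMS153, and on none of the arrays of the 6 H lines. STING1, its partner, went differently: it was highest in H187 (7.87) and DMS153 (7.39) and was not detected on any array of DMS53, DMS114 or H146. TAP1, a peptide transporter of antigen presentation, was detected on all 7 arrays of the 3 DMS lines, H187 (8.73) and H526 (8.95) and on none of H69, H128, H146 and H209. PSMB9, an immunoproteasome subunit, was detected in the same 5 lines. GBP2, a guanylate-binding protein, was detected in DMS53 alone (7.99), and MX2 was highest in DMS114 (8.55), the line without detected MX1.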
